A study of Homo sapiens with 4 samples.

Results

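The NRF2 antioxidant response was described here by 9 genes, taken by symbol from the 16708 genes listed in at least 1 library: the transcription factor *NFE2L2*, which encodes NRF2, its repressor *KEAP1*, its partner *MAFG*, and the classical targets *NQO1*, *HMOX1*, *GCLC*, *GCLM*, *TXNRD1* and *SRXN1*. All 9 genes were listed in all 4 libraries and passed the filter on low values, a mean of at least 0.5 RPKM (reads scaled to gene length and to the library total). The libraries came from BEAS2B, a virus-transformed line of human bronchial epithelial cells, at passages 15 to 18. Of them, 2 were made from QKI-knockdown cells, which express 1 retroviral shRNA directed at the RNA-binding protein QKI, and 2 from control cells, whose shRNA is directed at luciferase. With 1 shRNA, an effect of QKI loss and an effect of that shRNA cannot be told apart. The comparison asks whether mRNAs of the NRF2 response change in abundance when QKI is depleted.

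NRF2 is a basic leucine zipper transcription factor. In unstressed cells KEAP1 binds it and presents it to a CUL3 ubiquitin ligase, so that the protein is degraded, and oxidants or electrophiles that modify KEAP1 cysteines let it accumulate. NRF2 then pairs with a small MAF protein such as MAFG at antioxidant response elements, and in airway epithelium its targets supply glutathione, thioredoxin reduction and quinone detoxification. Because this control acts on the protein, the *NFE2L2* mRNA level does not by itself measure NRF2 activity.

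The antioxidant response element is shown here because it is the sequence through which the targets are controlled. Its core, TGACNNNGC or GCNNNGTCA on the other strand, was searched in RefSeq promoter windows of 300 bases (GRCh38.p14), which 8 of the 9 genes matched with 11 windows. The core was in 4 of these 11 windows, belonging to *KEAP1*, *GCLM* and *TXNRD1*, and in 13.3% of all 35116 windows. *HMOX1* had no window, and sequence outside the windows was not searched, so a gene without a match may hold the core elsewhere. The AP-1 letters TGANTCA, which can overlap the core, were in 0 of the 11 windows and in 7.71% of all windows. *KEAP1* held 2 matches, *TXNRD1* 3 over its windows and *GCLM* 1. For each gene 1 match is written below along the gene, with the core in capitals, chosen because their letters are most alike. The one of *KEAP1* (chr19:10502774-10502822, minus strand) starts 31 bases before the transcription start, the one of *GCLM* (chr1:93909436-93909484, minus strand) 34 bases before it, and the one of *TXNRD1* (chr12:104286910-104286958, plus strand) 102 bases before the start of 1 of its transcripts.
KEAP1: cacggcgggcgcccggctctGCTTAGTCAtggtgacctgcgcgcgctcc
GCLM: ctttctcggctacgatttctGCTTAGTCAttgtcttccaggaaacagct
TXNRD1: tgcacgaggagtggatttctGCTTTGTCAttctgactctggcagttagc
These matches of *KEAP1* and *GCLM* share all 9 letters of the core. The other match of *KEAP1*, TGACACGGC, starts 54 bases before its start and differs from them, and the others of *TXNRD1* start 99 and 8 bases before the start of another transcript. A match describes letters only and does not show binding.

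QKI binds RNA at a short motif, ACUAAC or ACUAAU. The same letters in DNA, ACTAAC or ACTAAT on the transcript strand, were searched in 1 GENCODE transcript per gene (hg19). At least 1 match was in 6 of the 9 NRF2 genes and in 47.9% of the 11521 genes tested that had a transcript. *NFE2L2* had 3 matches in 2446 bases, or 1.23 per kilobase, more than 98.6% of these genes. *NQO1* had 2 matches in 2521 bases, or 0.793 per kilobase, more than 94.4% of them. *GCLM* had 2 matches, *KEAP1*, *MAFG* and *GCLC* had 1 each, and *HMOX1*, *TXNRD1* and *SRXN1* had 0. As for the promoters, a match describes letters and does not show binding, and introns were not searched. Matches of *NFE2L2* and *NQO1*, the genes with the most per kilobase, are given with the motif in capitals. The first of *NFE2L2* is in the coding sequence (chr2:178097222-178097251) and its others are in the 3′ UTR (chr2:178095152-178095181 and chr2:178095047-178095076). Those of *NQO1* are both in the 3′ UTR, of which 1 is shown (chr16:69744360-69744389), and both genes are on the minus strand.
NFE2L2 coding: gtcttcattgctACTAATcaggctcagtca
NFE2L2 3′ UTR, first: aattattgcaaaACTAACcactatgtactt
NFE2L2 3′ UTR, second: ttaagagctggtACTAATaaaggattatta
NQO1 3′ UTR: tacaaagcagttACTAATatgcctagcaca

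The depth and the state of the libraries bear on all values. The totals by which the authors divided, recovered from the spacing of the RPKM values, were 20571555 and 34862008 reads in QKI-knockdown libraries 1 and 2, and 20052951 and 34706058 reads in control libraries 1 and 2. A member had between 309 reads (*HMOX1*, QKI-knockdown library 1) and 55702 reads (*TXNRD1*, control library 2). Summed over genes, the recovered reads came to 1.35 to 1.53 times the library totals, so reads may have been counted more than once. The epithelial label was met in part: *KRT8* was at 91.5 to 248 RPKM and *KRT18* at 103 to 189 RPKM, the basal keratin *KRT17* at 8.80 to 55.9 RPKM and *EPCAM* at 0.619 to 0.811 RPKM, whereas the basal and junctional markers *KRT5*, *KRT14*, *TP63* and *CDH1* were under 0.5 RPKM in every library. Of 5 fibroblast and mesenchymal markers, *VIM* at 247 to 958 RPKM, *COL1A1* at 18.6 to 54.1 and *PDGFRB* at 7.11 to 11.8 RPKM were over 0.5 RPKM, and *COL1A2* and *PDGFRA* were under it in every library. None of 4 endothelial and of 5 ciliated and secretory markers reached 0.5 RPKM.

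The knockdown was first checked on its target. *QKI* (ENSG00000112531, hg19 chr6:163835032-163999624) was at 2.52 and 3.85 RPKM in QKI-knockdown libraries 1 and 2, against 8.94 and 14.6 RPKM in control libraries 1 and 2. The groups did not overlap, and the change was -71.8% within replicate 1 and -73.6% within replicate 2. Its log2 fold change was -1.72 ± 0.38 (SE) without a block and was not called (adjusted p = 0.9999, limma). The replicate numbers differed so widely across genes that a second fit took the number as a block, and in it *QKI* was called at an adjusted p of 3.16e-33. Separate cultures are not stated for the libraries of a group, so the spread behind each p-value is that of these libraries and may be technical. In the block fit it is pooled almost wholly over genes of like level. For example, the block SE was 0.12 for *SRXN1*, with log2 changes of 0.02 and 0.04 within replicates 1 and 2. It was also 0.12 for *NQO1*, with log2 changes of -0.16 and -0.49. Block intervals and p-values therefore hold little of a gene's own disagreement between the replicate numbers.

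The members spanned a wide range of levels, compared here in RPKM, which is per length. *TXNRD1*, a selenoprotein that keeps thioredoxin reduced, led with a mean of 83.0 RPKM, higher than 97.0% of the genes tested, and was 22.8 times the mean of *GCLC*. *NQO1*, *KEAP1*, *NFE2L2* and *SRXN1* followed at means of 30.6, 29.8, 25.3 and 24.7 RPKM. Neighbours among these 4 genes were not separated, because their ranges over the libraries overlapped and each neighbouring order held in 2 of 4 libraries. Below them, *MAFG* at 15.6 RPKM, *GCLM* at 8.37, *HMOX1* at 4.92 and *GCLC* at 3.63 RPKM kept their order in 4 of 4 libraries. The order rests on the gene lengths the authors used, which were 0.626 times (*NQO1*) to 2.43 times (*TXNRD1*) the union of annotated exons.

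**Figure D1:**
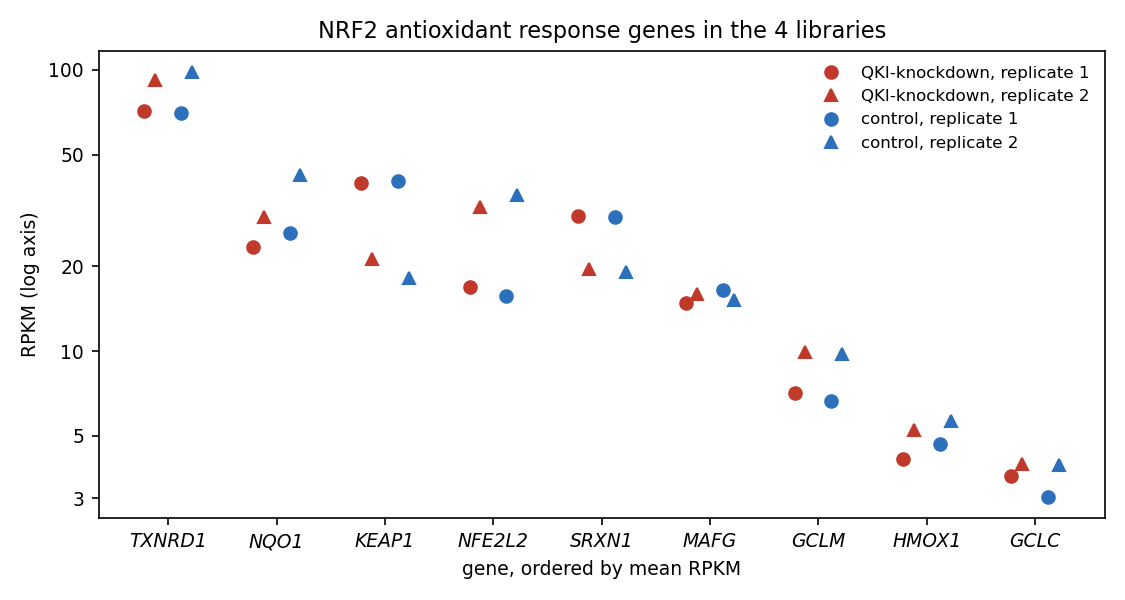
RPKM of the 9 NRF2 antioxidant response genes on a log axis, with QKI-knockdown libraries (red) left of control libraries (blue), circles for replicate 1 and triangles for replicate 2. *TXNRD1* is apart at 70.1 RPKM or more, and for every gene the groups overlap. Circles and triangles do not overlap for any gene except *MAFG*, and they differ most for *NFE2L2* and *KEAP1*.

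The test called 0 of the 9 members higher or lower in QKI-knockdown cells without a block, where 0% of the 11829 genes tested were called and 0.11% (13 genes) had an unadjusted p under 0.05. With the block it also called 0 of 9 members, where 0.854% of all genes tested were called, 0.49% higher and 0.364% lower. The groups overlapped for all 9 members, whereas both QKI-knockdown libraries were above both control libraries for 5.71% of the genes tested and below them for 2.89%. With 2 libraries against 2, an exact permutation test of 1 gene cannot give a two-sided p below 0.333. The median log2 fold change of the members was -0.02, against 0.03 over all genes tested, and their median size of change was 0.06, against 0.08.

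Among the regulators, *NFE2L2* (ENSG00000116044, hg19 chr2:178083395-178257484) was at 16.9 and 32.7 RPKM in QKI-knockdown libraries 1 and 2, against 15.7 and 35.9 RPKM in control libraries 1 and 2. The libraries numbered 2 were high in both groups, and the groups overlapped. The log2 fold change was -0.02, with a 95% interval of -0.24 to 0.21 in the block fit, and it was 0.10 within replicate 1 and -0.13 within replicate 2. The annotated exons of *NFE2L2* overlap those of *AGPS* and *HNRNPA3* on the other strand, and the library kit does not mark strand, so reads in the overlap cannot be assigned.

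*KEAP1* (ENSG00000079999, hg19 chr19:10596801-10614234), the adaptor that holds NRF2 for degradation, was at 39.5 and 21.3 RPKM in QKI-knockdown libraries 1 and 2, against 40.3 and 18.3 RPKM in control libraries 1 and 2. Here the libraries numbered 1 were high. The log2 fold change was 0.10, with a block interval of -0.13 to 0.32, and was -0.03 within replicate 1 and 0.22 within replicate 2. *MAFG* (ENSG00000197063, hg19 chr17:79876146-79885611), the small MAF partner, was at 14.8 and 15.9 RPKM in QKI-knockdown libraries and at 16.5 and 15.2 RPKM in control libraries. It had the smallest SE of the members without a block, 0.25, with a log2 fold change of -0.04 and a block interval of -0.28 to 0.20, although its exons overlap those of *SIRT7*.

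Among the targets, *NQO1* (ENSG00000181019, hg19 chr16:69740899-69760571), which reduces quinones by 2 electrons without forming semiquinone radicals, had the largest change of the 9 genes, and it is described further for that reason, after its values were seen. It was at 23.5 and 30.1 RPKM in QKI-knockdown libraries 1 and 2 (900 and 1953 reads), against 26.3 and 42.4 RPKM in control libraries 1 and 2 (983 and 2739 reads). Within each number the QKI-knockdown library was the lower one, with changes of -10.8% in replicate 1 and -29.0% in replicate 2, but QKI-knockdown library 2 was above control library 1, so the groups overlapped. The means were 26.8 ± 4.66 RPKM in QKI-knockdown cells and 34.4 ± 11.4 RPKM in control cells (SD, n = 2 each). The log2 fold change of -0.32 ± 0.36 (SE) was not called without a block (adjusted p = 0.9999, limma). With the block its 95% interval was -0.55 to -0.10, a fold of 0.683 to 0.935. Its unadjusted p was then 0.00507, in a fit where 6.15% of all genes had one under 0.05, and it failed the correction at an adjusted p of 0.233 (limma).

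*HMOX1* (ENSG00000100292, hg19 chr22:35776354-35790207), which breaks down heme to biliverdin, iron and carbon monoxide, was the other target below control within both numbers. It was at 4.12 and 5.23 RPKM in QKI-knockdown libraries 1 and 2, against 4.69 and 5.65 RPKM in control libraries 1 and 2. The log2 fold change was -0.14, with a block interval of -0.41 to 0.13 that spans 0. Over all genes tested, 16.6% were below control within both numbers and 31.7% above, and of the 9 members 2 were below, 3 above and 4 of opposite sign.

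*GCLC* and *GCLM* encode the catalytic and modifier subunits of glutamate-cysteine ligase, the rate-limiting enzyme of glutathione synthesis. *GCLC* (ENSG00000001084, hg19 chr6:53362139-53481768) was at 3.59 and 3.96 RPKM in QKI-knockdown libraries 1 and 2, against 3.04 and 3.95 RPKM in control libraries 1 and 2. Only control library 1 stood lower, so that the log2 change was 0.21 within replicate 1 and 0.01 within replicate 2, with a mean of 0.11 and a block interval of -0.17 to 0.39. *GCLM* (ENSG00000023909, hg19 chr1:94350755-94375012) was at 7.11 and 9.96 RPKM in QKI-knockdown libraries 1 and 2, against 6.65 and 9.76 RPKM in control libraries 1 and 2. Its log2 fold change was 0.06, with a block interval of -0.19 to 0.31. The RPKM ratio of *GCLM* to *GCLC* was 1.98 and 2.51 in QKI-knockdown libraries 1 and 2, against 2.19 and 2.48 in control libraries 1 and 2, so the modifier subunit was the more abundant mRNA in every library on the authors' lengths.

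*TXNRD1* (ENSG00000198431, hg19 chr12:104609557-104744085) was at 71.3 and 92.3 RPKM in QKI-knockdown libraries 1 and 2, against 70.1 and 98.4 RPKM in control libraries 1 and 2. The log2 fold change was -0.03, with a block interval of -0.26 to 0.20. *SRXN1* (ENSG00000172070, hg19 chr20:627259-633844), a sulfiredoxin that restores overoxidized peroxiredoxins, was at 30.3 and 19.6 RPKM in QKI-knockdown libraries 1 and 2, against 29.9 and 19.1 RPKM in control libraries 1 and 2. It differed by 1.49% within replicate 1 and by 2.69% within replicate 2, and its log2 fold change was 0.03 with a block interval of -0.20 to 0.26, and the value turned to -0.0050 when each library was centred on its median. The identifier of *SRXN1* in the tables is not that of the annotation, so its position was matched by symbol, and its exons overlap those of a neighbouring locus on the same strand. For the 8 members other than *NQO1*, the block intervals lay within folds of 0.754 to 1.31, and their lowest adjusted p with the block was 0.9988 (limma).

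**Figure D2:**
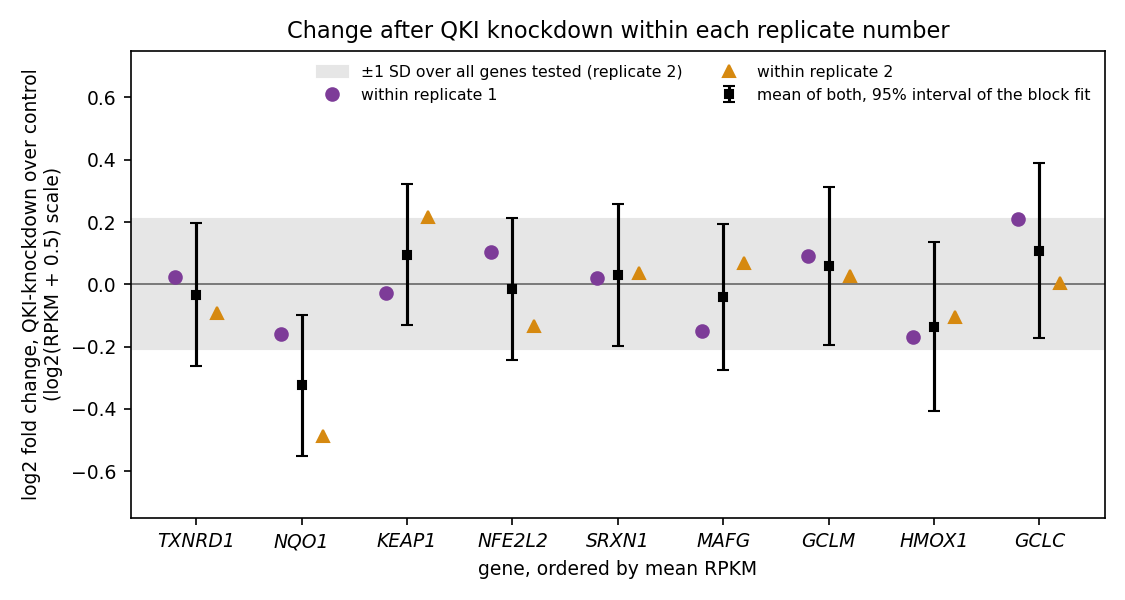
Log2 fold change of QKI-knockdown over control cells within replicate 1 (circles) and within replicate 2 (triangles), and the mean of both with its 95% interval from the block fit (squares), with a grey band of 1 SD over all genes tested in replicate 2. The interval of *NQO1*, -0.55 to -0.10, lies below 0 before correction over all genes, and the other 8 intervals span 0.

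For 8 of the 9 members, *MAFG* excepted, the mean log2 difference was larger in size by replicate number than by group. The study sequenced at 2 read lengths, and the sources used here tie no number to a length. *NFE2L2* was 1.93 times as high in replicate 2 as in replicate 1 in QKI-knockdown cells and 2.29 times in control cells, whereas *KEAP1* was 0.539 times as high in QKI-knockdown cells and 0.453 times in control cells. In log2 these differences were 0.93 in QKI-knockdown cells and 1.17 in control cells for *NFE2L2*, and -0.88 in QKI-knockdown cells and -1.12 in control cells for *KEAP1*. Across all genes tested, 14.7% differed more than *NFE2L2* between the QKI-knockdown libraries and 14.5% between the control libraries. The RPKM ratio of *NFE2L2* to *KEAP1* was therefore 0.428 and 1.53 in QKI-knockdown libraries 1 and 2, against 0.390 and 1.97 in control libraries 1 and 2. The ratio was low in both libraries numbered 1 and high in both numbered 2.

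The 5 targets *NQO1*, *HMOX1*, *GCLC*, *GCLM* and *TXNRD1* were, like *NFE2L2*, higher in replicate 2 in both groups, and *SRXN1* was, like *KEAP1*, lower in replicate 2. Thus 6 of 9 members were higher in replicate 2 in both groups and 2 were lower, beside 45.8% and 45.6% of all genes tested. The median difference of the members was 0.31 in QKI-knockdown cells and 0.33 in control cells, whereas it was close to 0 over all genes, where the SD was 0.66 in QKI-knockdown cells and 0.81 in control cells. Marker levels also moved with the number. The summed RPKM of the 9 epithelial and basal markers was 464 and 247 in QKI-knockdown libraries 1 and 2, against 475 and 204 in control libraries 1 and 2. That of the 5 fibroblast and mesenchymal markers was 733 and 288 in QKI-knockdown libraries 1 and 2, against 1017 and 302 in control libraries 1 and 2, and among the leukocyte markers *CD14* ranged between 0.794 and 5.22 RPKM. *VIM*, at 247 to 958 RPKM, made up most of the fibroblast and mesenchymal sum, and *KRT8* and *KRT18* most of the epithelial and basal sum. The part of these marker levels in the differences of the members was not tested, nor was that of the read length.

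**Figure D3:**
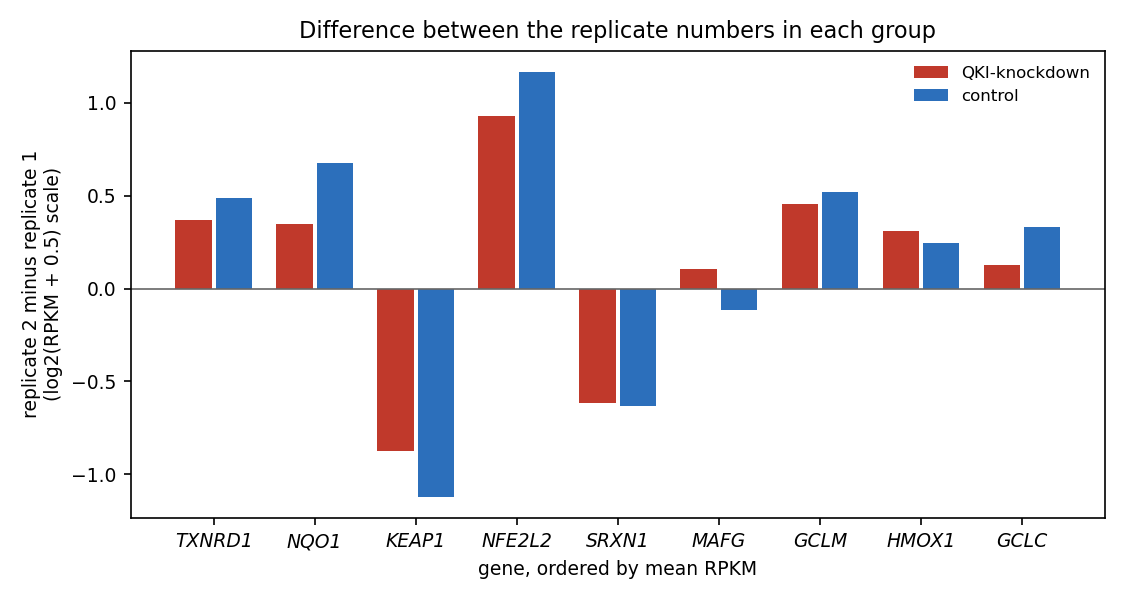
Replicate 2 minus replicate 1 on the log2(RPKM + 0.5) scale for each member, with QKI-knockdown cells (red) left of control cells (blue) and 1 difference per bar. *NFE2L2* and *KEAP1* differ most and in opposite directions, at 0.93 and -0.88 in QKI-knockdown cells and at 1.17 and -1.12 in control cells.

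The genes whose centred log2 levels lay nearest to those of *NFE2L2* over the 4 libraries were *GPR4*, which encodes a proton-sensing receptor, *TAB3*, which encodes a partner of the kinase TAK1, and *TOPORS*, which encodes a ubiquitin ligase, at Euclidean distances of 0.0179, 0.0293 and 0.0345. Of the other members, *GCLM* was nearest at rank 2639 of 11828 genes and *KEAP1* farthest at rank 10697. With 4 libraries, this likeness mostly follows the replicate number. *GPR4* was near the filter, at 0.335 and 1.08 RPKM in QKI-knockdown libraries 1 and 2, against 0.278 and 1.22 RPKM in control libraries 1 and 2. At such levels the 0.5 RPKM added before the log shrinks differences, so the nearness of *GPR4* depends on that scale.

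Around the members, 96 further genes of the pathway were read from 7 lists, of which 95 were listed in the tables and 83 passed the filter. Of these, 0 were called higher and 0 lower, without or with the block, their median log2 fold change was 0.02, and 48 were above 0 and 35 below. An unadjusted p under 0.05 with the block was reached by 4 genes, or 4.82%, below the 6.15% of all genes tested. Both QKI-knockdown libraries were above both control libraries for 5 of the 83 genes, where 5.71% of all genes tested were so placed, and below them for 6, where 2.89% were. The median of the 83 genes turned its sign when 1 library or another was left out. So did that of every list except superoxide and hydrogen peroxide removal.

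Of the 15 NRF2 partners and degradation genes, the most abundant were *NFE2L1*, which encodes a relative of NRF2, *SQSTM1*, which encodes the autophagy receptor p62 that binds KEAP1, and *GSK3B*, a kinase that marks NRF2 for degradation. *NFE2L1* was at 95.8 and 83.5 RPKM in QKI-knockdown libraries 1 and 2, against 96.2 and 76.6 RPKM in control libraries 1 and 2, well above *NFE2L2* in every library. *SQSTM1* was at 57.9 and 55.6 RPKM in QKI-knockdown libraries and at 60.5 and 56.9 RPKM in control libraries. *GSK3B* was at 17.9 and 21.5 RPKM in QKI-knockdown libraries and at 16.1 and 22.1 RPKM in control libraries. *BACH2*, a repressor at the same elements that was under 0.7 RPKM in every library, was farthest above 0 at a log2 fold change of 0.25, and *MAFK*, another small MAF, farthest below at -0.17.

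Of the 26 glutathione synthesis and use genes, 23 were tested, with a median log2 fold change of 0.03. The most abundant was *GSTP1*, a glutathione transferase, at 193 and 104 RPKM in QKI-knockdown libraries 1 and 2, against 215 and 80.7 RPKM in control libraries 1 and 2. The glutathione peroxidases *GPX4* and *GPX1* followed, at 97.5 to 133 and 54.8 to 127 RPKM in QKI-knockdown cells, against 90.3 to 151 and 51.5 to 140 RPKM in control cells. *GSTM4* was farthest above 0, at a log2 fold change of 0.26, and *MGST1* farthest below, at -0.22. *GSTM4* belongs to a family of near-identical genes, and the authors discarded ambiguous alignments, so reads that match more than 1 of them may be missing.

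The 13 tested genes of the thioredoxin and peroxiredoxin list, which act beside *TXNRD1* and *SRXN1*, had a median of 0.06, which ranged between -0.12 and 0.26 when 1 library was left out. *PRDX1*, a peroxiredoxin that SRXN1 restores, was at 186 and 140 RPKM in QKI-knockdown libraries 1 and 2, against 174 and 133 RPKM in control libraries 1 and 2. *TXN*, the thioredoxin that TXNRD1 reduces, was at 117 and 74.6 RPKM in QKI-knockdown libraries and at 103 and 69.1 RPKM in control libraries, and *PRDX5* was at 143 and 116 RPKM in QKI-knockdown libraries and at 148 and 93.8 RPKM in control libraries. *PRDX6* was farthest above 0, at a log2 fold change of 0.16. *TXNIP*, which binds and inhibits thioredoxin, was farthest below 0 at -0.27, but this came from replicate 2 alone, with 0.01 within replicate 1 and -0.54 within replicate 2.

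The 7 NADPH supply genes had a median of 0.01, which ranged between -0.41 and 0.47 when 1 library was left out. *TALDO1* and *PGD*, of the pentose phosphate pathway, had log2 fold changes of 0.08 and 0.16, and *PGD* was farthest above 0. *IDH1*, the cytosolic NADP-dependent isocitrate dehydrogenase, was farthest below 0 at -0.26, with 5.35 and 12.1 RPKM in QKI-knockdown libraries 1 and 2, against 5.96 and 16.0 RPKM in control libraries 1 and 2.

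The quinone, carbonyl and drug detoxification list, to which *NQO1* is nearest in role, had the lowest median, at -0.12 over 13 tested genes of 21, and 6 of the 13 were below control within both numbers, as were 16.6% of all genes tested. Without control replicate 2 the median was 0.18, and without QKI-knockdown replicate 1 it was 0.07. The 8 others, among them *AKR1C1*, *AKR1B10* and *ALDH3A1*, which are widely used as NRF2 targets, did not pass the filter. *ABCC3*, an efflux pump for glucuronides and other conjugates, was at 1.52 and 3.999 RPKM in QKI-knockdown libraries 1 and 2, against 2.02 and 6.77 RPKM in control libraries 1 and 2. The groups overlapped, but within each number the QKI-knockdown library was lower, with log2 changes of -0.32 and -0.69. Its log2 fold change of -0.50 was not called, with an adjusted p of 0.0567 with the block and 0.9999 without it (limma), although it passed the threshold in 2 other block fits, at 0.0279 with each library centred on its median and at 0.00339 with voom on recovered reads. *AKR1B1*, *CBR1* and *PTGR1*, the most abundant of the list, had log2 fold changes of -0.12, -0.13 and 0.14, and *UGDH* was farthest above 0 at 0.17.

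Of the heme and iron genes, the ferritin subunits *FTL* and *FTH1* were the most abundant of all the lists. *FTL* was at 524 and 451 RPKM in QKI-knockdown libraries 1 and 2, against 558 and 432 RPKM in control libraries 1 and 2, and *FTH1* was at 362 and 305 RPKM in QKI-knockdown libraries and at 384 and 274 RPKM in control libraries. *TFRC*, the transferrin receptor, was farthest above 0 at a log2 fold change of 0.28, with 39.9 and 57.2 RPKM in QKI-knockdown libraries 1 and 2, against 31.7 and 48.3 RPKM in control libraries 1 and 2, and was not called (adjusted p = 0.418 with the block, limma). *SLC48A1*, a heme transporter, was farthest below at -0.20, and between -0.37 and -0.04 when 1 library was left out. Of the superoxide and hydrogen peroxide list, *SOD1*, *SOD2* and *CAT* had log2 fold changes of -0.09, -0.06 and -0.05.

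**Figure D4:**
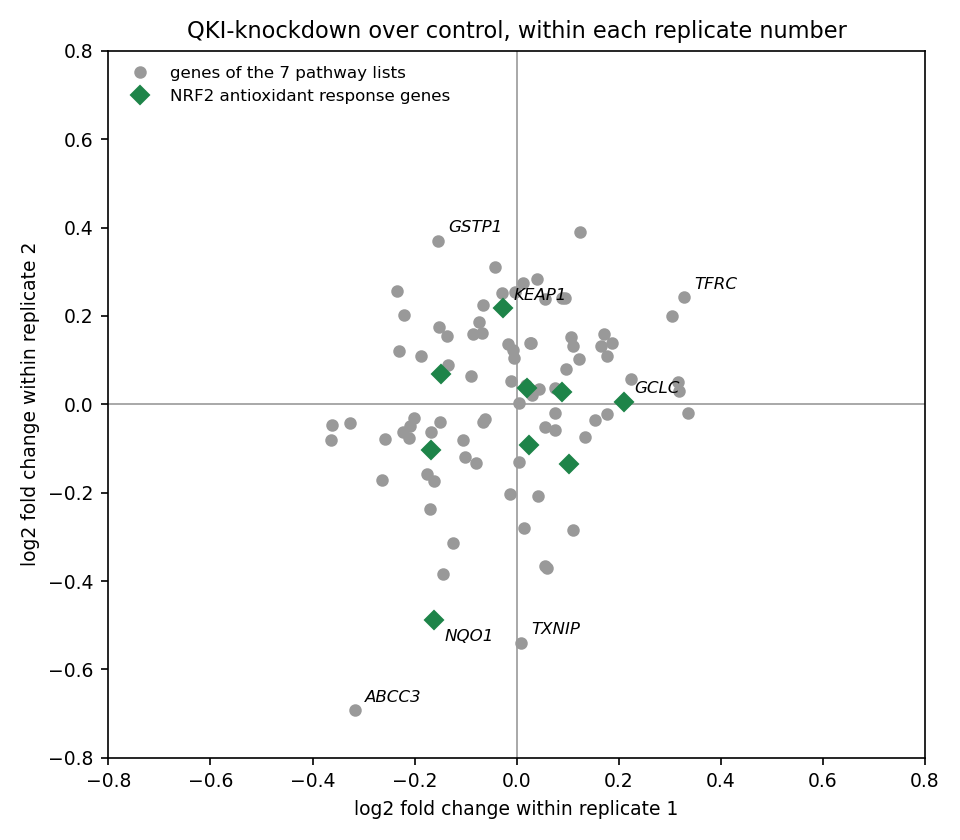
Log2 fold change of QKI-knockdown over control cells within replicate 1 (x axis) and within replicate 2 (y axis) for 83 genes of the 7 pathway lists (grey circles) and the 9 members (green diamonds). *ABCC3*, at -0.32 and -0.69, and *NQO1*, at -0.16 and -0.49, lie lowest among genes below 0 in both, and most other genes lie near 0.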

How the data were processed

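Single-end RNA-Seq libraries were made with an Illumina TruSeq RNA kit, which does not mark strand. Reads were aligned by the authors to hg19 and to junctions of annotated protein-coding exons with Bowtie (its version was not given in the sources used here), and ambiguous alignments were discarded. RPKM values were deposited, with 1 table for each library. Of 16708 listed genes, the 11829 with a mean of at least 0.5 RPKM were tested as log2(RPKM + 0.5) with limma 3.58.1 (R 4.3.3, mean-variance trend, two-sided, Benjamini-Hochberg adjusted p under 0.05). This scale understates the change of low genes. A missing gene was given 0 RPKM. Whole reads were recovered for 100% of the values (relative tolerance 1e-10). Replicate differences correlated across genes between the groups (r = 0.953), while the labels give no shared culture or day, so the replicate number is a batch term. Scripts were tested on simulated data. The members and lists were chosen with earlier results of these data known. Named were the members, *QKI*, genes of the lists that were called, most abundant or farthest from 0, and the 3 genes nearest to *NFE2L2*, while marker genes and *CD14* were named to describe the cells. Alternatives were the block, centring, pseudocounts, filters, each library left out and voom. Python 3.11.15 was used. Some items of the lists and sequences are not reported here.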

Additional observations from a re-analysis of the deposited data

How the results depend on the processing

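Of 81 fold changes of the 9 members under alternatives that kept all 4 libraries, 79 kept their direction, and 0 passed the threshold in any setting. The exceptions were *SRXN1*, at -0.0050 under median centring with and without the replicate block. Over all genes tested, the number called was 0 without a block, 101 with the replicate block, 114 (48 higher, 66 lower) with the block and median centring, and 137 (69 higher, 68 lower) with voom on recovered reads and the block, against 58 higher and 43 lower with the block alone. Voom was chosen after seeing the data, in place of the 2 planned edgeR fits, which were not run because the deposited unit is RPKM. The adjusted p of *NQO1* ranged between 0.126 and 0.369 over the fits with a block. Beside the same fit without it, the block changed the call of *QKI*, at -1.72 (-1.75 with median centring, -1.88 with voom), and, with median centring (-0.54) or voom (-0.63), that of *ABCC3*, and no other call of the genes for which fits were repeated. Leaving out 1 library unbalanced the replicate numbers, and the lone library was then assumed to vary like the others. The number of genes called ranged between 0 and 4, and the members' median between -0.20 (without control replicate 1) and 0.020. Without 1 library the log2 fold change ranged between -0.60 and 0.57 for *NFE2L2*, -0.47 and 0.66 for *KEAP1*, -0.10 and 0.017 for *MAFG*, -0.66 and 0.014 for *NQO1*, -0.29 and 0.020 for *HMOX1*, -0.057 and 0.27 for *GCLC*, -0.20 and 0.32 for *GCLM*, -0.28 and 0.21 for *TXNRD1*, and -0.29 and 0.35 for *SRXN1*. It ranged between -0.82 and 0.49 for *MAFK*, -0.94 and 0.50 for *MGST1*, -0.10 and 0.43 for *PRDX6*, -0.59 and 0.063 for *TXNIP*, -0.15 and 0.47 for *PGD*, -0.94 and 0.41 for *IDH1*, -1.27 and 0.26 for *ABCC3*, -0.016 and 0.59 for *TFRC*, and -0.41 and 0.22 for *SOD1*, and without turning sign between -0.37 and -0.04 for *SLC48A1*, 0.09 and 0.25 for *UGDH*, 0.14 and 0.38 for *GSTM4*, 0.20 and 0.30 for *BACH2*, and -2.06 and -1.38 for *QKI*. The list medians ranged between -0.02 and 0.11 for NRF2 partners and degradation, -0.10 and 0.04 for glutathione, -0.12 and 0.26 for thioredoxin and peroxiredoxin, -0.41 and 0.47 for NADPH supply, -0.12 and 0.18 for detoxification, -0.20 and 0.08 for heme and iron, -0.07 and -0.03 for superoxide and hydrogen peroxide removal, and -0.023 and -0.016 for all lists together. The members had at least 309 reads per library. Without the block, the precision is set by 2 libraries per group and the difference between the numbers. With the block, it is set almost wholly by the spread pooled over genes of like level.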
